A study of Mus musculus with 4 samples.

Results

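The Hox genes, with the Meis and Pbx genes whose products bind DNA beside Hox proteins, were followed across 4 arrays of mouse embryonic fibroblasts. Members were chosen by name. Each probe set that the platform annotation ties to exactly 1 gene symbol was taken when that symbol was a listed Hox, Meis or Pbx gene. All 36 listed genes were found, of 8251 genes named on the array, and they were covered by 45 of the 12422 probe sets tested. They comprised 10 HoxA, 9 HoxB, 5 HoxC and 7 HoxD genes, 3 Meis genes and 2 Pbx genes. Another 3 probe sets carried the symbols of a pair of Hox genes each and were not counted as members.

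The fibroblasts came from a mixed FVB;129Sv background and carried the Men1 knockout in both groups. One group (2 arrays) was complemented with Men1 and is called Men1-complemented, and the other (2 arrays) was given vector. The labels give neither the vector and its promoter nor the number of embryos or clones behind the lines, and the titles number the arrays 1 and 2 in each group. The design text names as its aim the genes regulated by menin, the nuclear protein that Men1 encodes.

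Hox genes encode homeodomain transcription factors that specify position along the body axis, and in mammals they lie in clusters named A to D. Genes in the same place of different clusters are paralogues and share a number, with low numbers used toward the head and high numbers toward the tail and the limb tips. Meis and Pbx proteins belong to the TALE class of homeodomain proteins and form complexes with Hox proteins on DNA. Menin binds the histone methyltransferase encoded by Kmt2a, which maintains Hox expression in blood progenitors, in MLL-rearranged leukaemia and in the embryo, and fibroblasts in culture are known to keep a Hox pattern of the body site they came from.

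Signals are the deposited linear MAS5 values, compared as log2(signal + 16), so that a difference of a dim probe set is understated. Each array also carried 19 control probe sets for RNA that was not spiked in. The brightest of them reached 25.9 and 27.4 with Men1, and 15.9 and 20 with vector. A signal that did not exceed this value is called at control level. The limit was higher on both Men1-complemented arrays than on the vector arrays. Near-equal signals can therefore be at control level with Men1 and above the controls with vector. Probe sets differ in how brightly they respond, so signals were compared between arrays and never between genes. The number of arrays limits the precision. Across all 12422 probe sets, differences had a median standard error (SE) of 0.22 on the log2 scale. The labels do not say that the arrays of a group came from separate cultures, so the spread may be technical. Per the labels, labelling began with both random and poly(T) primers and ended with biotin on cDNA, whereas arrays of this design were made for labelled cRNA primed at the poly(A) tail. How far a signal or a control level depends on this was not tested.

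Men1 itself gave signals of 18.8 and 22.5 in the Men1-complemented group, both at control level. In the vector group it gave 18.1 and 29.5, both above the lower limits there. The log2 difference was -0.11 (SE 0.22), so its signal was not higher with Men1. Whether this probe set matches the deleted or the reintroduced part of the gene is unknown here, so it does not check the labels. Of 14 fibroblast markers, 9 were above the controls on all 4 arrays, Col1a1 and Sparc among them. Vim was also among the 9, but near the limits with Men1, at 33 and 28.8 beside 25.9 and 27.4. The surface marker Thy1 was at control level throughout. The matrix genes Dcn, Lum and Postn were above the controls on 3, 1 and 2 arrays. Above the controls on all 4 arrays were also 4 of 5 neural markers, 2 of 6 epithelial, 1 of 5 endothelial, 2 of 4 measured blood and 2 of 5 muscle markers. In bulk RNA of this kind, fewer cells of a type and less RNA per cell cannot be told apart.

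Many of the Hox genes with low and middle paralogue numbers in the A and B clusters were detected, and those with high numbers in the A and D clusters were not. Of the 36 members, 16 were above the controls on all 4 arrays (44.4%, against 58.1% of all probe sets tested). A member was counted by its probe set of highest mean signal, whereas the shares over all probe sets count each of them. At the other end, 10 members were at control level on every array, where this held for 25.5% of all probe sets. The HoxB cluster had 7 of 9 genes above the controls on all 4 arrays, the HoxA cluster 4 of 10, the HoxD cluster 1 of 7 and the HoxC cluster 0 of 5. Of the 5 Meis and Pbx genes, 4 were above. The limit decides this count. With the highest antisense control probe set as the limit, chosen after seeing the data, 4 of the 36 were above on all 4 arrays (Hoxa4, Hoxb5, Hoxb6 and Pbx3), beside 29.3% of all probe sets. A signal at control level shows only that the probe set did not respond above these controls, and does not show that the gene is silent.

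**Figure D1:**
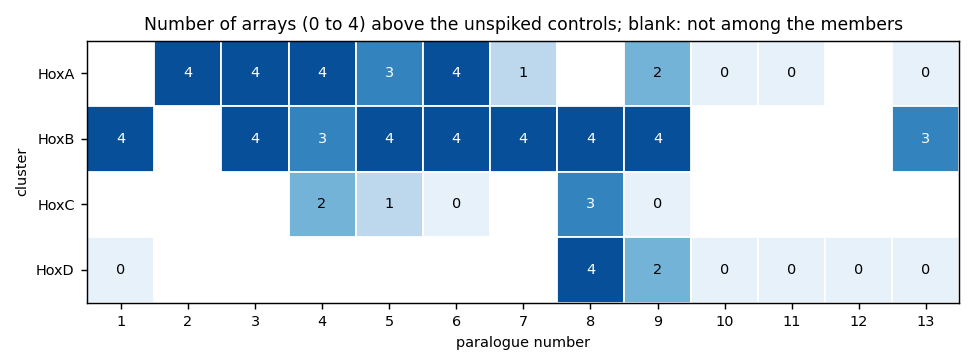
Number of arrays, from 0 to 4, on which each Hox gene exceeded the highest unspiked control, by cluster (rows) and paralogue number (columns), with blank cells for genes that are not members. HoxB genes with the numbers 5 to 9 were above the controls on all 4 arrays, and genes with the numbers 10 to 13 in the A and D clusters on none.

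No member differed between the groups after adjustment. By limma with Benjamini-Hochberg adjustment over all probe sets, 0 of the 45 member probe sets passed 0.05, as did 0 (0%) of the 12422 probe sets, and the smallest adjusted p among members was 1. At an unadjusted limma p under 0.05 there were 0 of the 36 genes, taking for each its probe set with the highest mean signal, against 1.88% of all probe sets. In the Men1-complemented arrays 16 members were higher and 20 lower. This makes 44.4% higher, beside 47.2% of all probe sets. The median difference, Men1-complemented minus vector, was -0.06, and over all probe sets it was -0.01. Differences of members ran from -0.43 (Hoxa7) to 0.62 (Hoxb3). In 8 of the 36 genes (22.2%) the groups did not overlap, beside 22.1% of all probe sets, so the members' share was near the background. After quantile normalization it was 13, beside 25.3% of all probe sets.

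**Figure D2:**
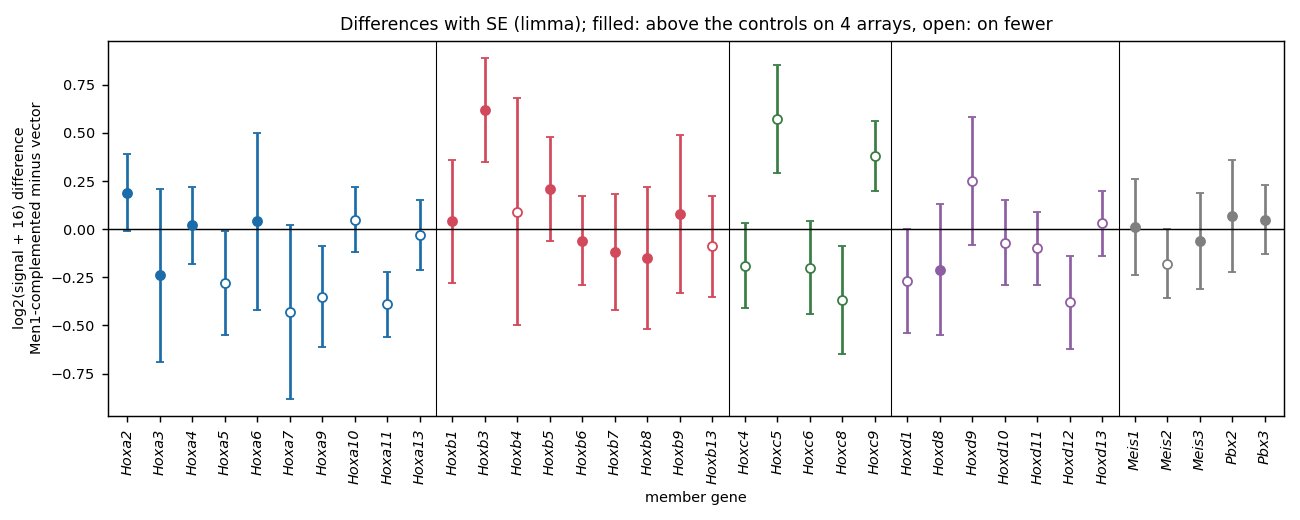
Difference in log2(signal + 16), Men1-complemented minus vector, for the 36 member genes (points, with bars of 1 SE from limma), grouped by cluster. Filled points mark genes above the controls on all 4 arrays. Hoxb3, at 0.62, lies farthest above 0 and Hoxa7, at -0.43, farthest below it, and no gene passed after adjustment.

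Among the HoxA genes 4 were higher and 6 lower with Men1, with a median of -0.14 that became 0.04 without vector array 2. Hoxa2, which patterns the hindbrain and the second branchial arch, gave 52.4 and 61.1 with Men1, against 41.5 and 54.4 with vector. The groups overlapped, and the log2 difference of 0.19 (SE 0.20) was 0.04 without vector array 1. Hoxa3, needed for the thymus and parathyroid, read 38.3 and 99.3 against 56.5 and 105.1. Its array 2 was the brighter one in both groups, and the difference of -0.24 (SE 0.45) was smaller than its error. Without Men1-complemented array 1 the difference of Hoxa3 became 0.30.

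Hoxa4 was measured by 4 probe sets. The brightest gave 315 and 289.2 with Men1, against 267.8 and 330.4 with vector, a difference of 0.02 (SE 0.20). Its name ends in _r_at, which marks a probe set for which some of the maker's design rules were relaxed. The others were dim. One of them exceeded the controls on 1 array, at 24.9 on vector array 2, and the remaining ones on none, so only 1 of 4 probe sets placed Hoxa4 well above the controls. Hoxa6 had the same arrangement. Its _r_at probe set read 62.5 and 72.7 against 35.5 and 112.6, which spread more within the vector group than between the groups (0.04, SE 0.46). The second Hoxa6 probe set, of the _f_at type for sequence families, stayed between 4.8 and 7.5, at control level on every array.

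Hoxa5, a regulator of lung and axial skeletal development, read 22.4 and 29 against 24.8 and 46.3. Hoxa7 had 1 signal above the controls, 53.9 on vector array 1, and read 22.3 and 13.6 with Men1 and 13.5 on vector array 2. That array set its difference of -0.43 (SE 0.45), which was 0.19 without vector array 1. Hoxa9, a target of the Kmt2a and menin complex in leukaemia and the partner of Meis1 there, read 16.2 and 17.1 with Men1, both at control level, and 17.9 and 35.3 with vector. The groups did not overlap. The Men1-complemented signals lay below their controls of 25.9 and 27.4, so no fold above 1 could be given. The limits of the vector arrays were lower, at 15.9 and 20. The difference of -0.35 (SE 0.26) was -0.05 without vector array 2.

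The HoxA genes with the numbers 10, 11 and 13, which pattern limbs and the reproductive tract, were at control level on all 4 arrays. Hoxa10 read between 0.7 and 1.5, and Hoxa13 between 2.8 and 5.3. Hoxa11 read 2.4 and 2.7 with Men1, against 7.4 and 9.2 with vector. Its groups did not overlap, and its unadjusted limma p of 0.0743 was the smallest of the 36 genes. No level is given for it in either group, since every one of its signals was below the controls.

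The HoxB cluster gave the most detected genes. Among its members 5 were higher and 4 lower with Men1, with a median of 0.04. Without Men1-complemented array 1 that median was -0.17 and without Men1-complemented array 2 it was 0.23. Hoxb3, expressed from the hindbrain backward, gave 96 and 72.4 with Men1, against 63.3 and 37 with vector. It was the only one of the 16 members above the controls on all 4 arrays whose groups did not overlap (6.25%, beside 22% of such probe sets). The means were 84.2 ± 16.7 and 50.1 ± 18.6 (SD, n = 2 each). The log2 difference was 0.62 (SE 0.27), a fold of 1.53 on this scale, with an adjusted limma p of 1 and an unadjusted p of 0.0748. Of all ways to divide 4 arrays into pairs, none can give a two-sided exact permutation p below 0.333. Leaving out single arrays gave differences of Hoxb3 between 0.33 and 0.91. The lowest, without vector array 2, was below the value reported by more than 1.5 times.

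Hoxb1, an early hindbrain gene, read 38.3 and 63.8 with Men1, against 35.5 and 64 with vector. The groups overlapped almost fully, at a difference of 0.04 (SE 0.32). Hoxb4, known for the expansion of blood stem cells, read 79.3 and 20.9 against 66 and 21.9. The arrays numbered 1 were high and those numbered 2 low in both groups. Means of Hoxb4 were 50.1 ± 41.3 and 44 ± 31.2 (SD, n = 2 each), a difference of 0.09 (SE 0.59). Hoxb5 read 187 and 178.6 against 121.5 and 199.8, where vector array 1 was the low one (0.21, SE 0.27). Without that array the difference of Hoxb5 was -0.12.

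Hoxb6, a gene of the lower neck and trunk, gave 338.6 and 262.5 with Men1, against 350.3 and 275.8 with vector (-0.06, SE 0.23). Hoxb7 read 135.5 and 77 against 130.6 and 97.9 (-0.12, SE 0.30). Hoxb9, which patterns the thoracic skeleton, read 184.6 and 88.9 against 158.7 and 92.3 (0.08, SE 0.41). In all of these genes the arrays numbered 1 exceeded those numbered 2 in each group, and the groups overlapped.

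Hoxb8 had a pair of probe sets that disagreed. Its brighter _r_at probe set read 131.3 and 128.2 with Men1, against 96.7 and 216.5 with vector, a difference of -0.15 (SE 0.37). The _s_at probe set, whose probes can match related transcripts, read 70.7 and 25.3 against 68.4 and 16.9, a difference of 0.18 (SE 0.58). Only the latter had the order by array number seen in Hoxb4. A further probe set that carries the symbols of both Hoxb7 and Hoxb8, and is no member here, read 298.6 and 247.7 against 315.3 and 256.9. Hoxb13, the gene at the tail end of the cluster and separated from the rest by a long gap, read 15.4 and 30.6 against 20.9 and 28.8, which overlap.

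HoxC genes were near or at control level. Of the 5 genes 2 were higher and 3 lower with Men1, with a median of -0.19 that was 0.07 without vector array 2. Hoxc5 read 38.6 and 19.5 with Men1, against 10.5 and 17.1 with vector. The groups did not overlap, and only Men1-complemented array 1 exceeded its controls. The signal on Men1-complemented array 2 was at control level, and array 1 carried much of the difference of 0.57 (SE 0.28, adjusted limma p of 1). Without array 1 the difference was 0.26, of the same sign. Hoxc8, a gene of the thoracic segments, read 31.5 and 25.6 against 29.1 and 56.9, and vector array 2 set its difference of -0.37 (SE 0.28). Without that array it was -0.02.

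Hoxc4 was at control level with Men1, at 18.2 and 22.7, and read 19.8 and 32 with vector. Hoxc6, which has been described as a menin target, was at control level on all 4 arrays, between 4.2 and 13.5. Hoxc9 was so too, with 11.8 and 12.2 against 4.2 and 6.8, where the groups did not overlap but no signal was above the controls. The only Hoxc9 probe set was of the _f_at type for sequence families.

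Of the 7 HoxD genes 2 were higher and 5 lower with Men1 (median -0.10). Hoxd8 was the one HoxD gene above the controls on all 4 arrays, and both of its probe sets were. The brighter read 104 and 52.1 with Men1, against 104.8 and 74.6 with vector, a difference of -0.21 (SE 0.34). The other read 67.2 and 39.8 against 102.9 and 30.6 (-0.13, SE 0.50). Both were higher on the arrays numbered 1 than on those numbered 2 in each group, and neither separated the groups. Hoxd9 read 41.9 and 15.8 against 22.3 and 18.1, above the controls on both arrays numbered 1 only (0.25, SE 0.33).

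Hoxd1 and the digit and limb genes Hoxd10, Hoxd11, Hoxd12 and Hoxd13 were at control level on every array. Their chosen probe sets ranged from 1.7, for Hoxd12, to 15.5, for Hoxd10. Of these, Hoxd12 did not overlap between groups, at 4.7 and 1.7 against 4.9 and 13.6. Both probe sets carrying the symbols of Hoxd3 and Hoxd4, which are not members here, were brighter on array 1 of each group. One of them read 55.5 and 9.6 with Men1, against 56.1 and 8.9 with vector.

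**Figure D3:**
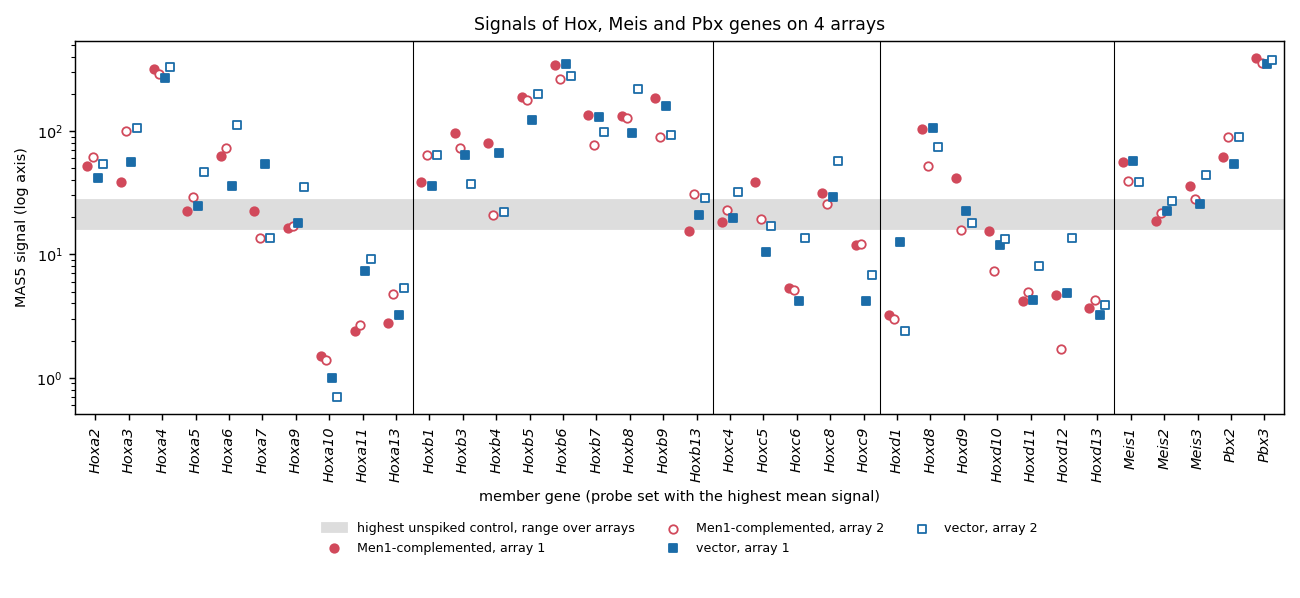
MAS5 signals (log axis) of the probe set with the highest mean for each of the 36 member genes on the 4 arrays, with the range of the highest unspiked control in grey. Circles are Men1-complemented and squares vector, filled for array 1 and open for array 2. Hoxb4 reads 79.3 and 66 on the filled symbols and 20.9 and 21.9 on the open ones, and the Hoxb3 circles both lie above the squares. Heights of different genes cannot be compared.

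The cofactor genes were mostly detected, and their differences ran from -0.18 to 0.07, with SEs of 0.18 to 0.29. Of the 5 genes 3 were higher and 2 lower with Men1, with a median of 0.01 that was -0.22 without vector array 1. Meis1, the partner of Hoxa9 in leukaemia models, read 56.2 and 39.5 with Men1, against 57.2 and 38.2 with vector (0.01, SE 0.25). The only Meis1 probe set was of the _s_at type, whose probes can match related transcripts. Meis3 read 35.8 and 28.3 against 25.7 and 43.9, which overlap (-0.06, SE 0.25). Meis2, a cofactor in limb, heart and neural development, read 18.7 and 21.5 against 22.6 and 27.2. Its groups did not overlap, but with Men1 it was at control level on both arrays, which gave no fold above 1 (-0.18, SE 0.18, and -0.10 without vector array 2).

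Pbx2 read 62 and 89.5 against 54.1 and 89.8, so that array 2 was the brighter one in each group (0.07, SE 0.29). Pbx3 was covered by 3 probe sets, all above the controls on every array. The brightest read 391.5 and 353.8 with Men1, against 346 and 374.5 with vector (0.05, SE 0.18). The _g_at probe set read 190.6 and 274.8 against 185.2 and 284.7, which overlap almost fully (SE of the difference 0.30). The remaining one separated the groups, with 152.1 and 154.9 against 172.7 and 197.7, at a difference of -0.24 (SE 0.18) that did not pass (adjusted limma p of 1). The Pbx3 probe sets therefore did not share a direction.

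Several HoxB genes, Hoxd8, Hoxa7 and Meis1 were higher on the arrays numbered 1 than on those numbered 2 in both groups. Taking a log2 difference of at least 0.3 in both groups, 8 of the 36 members (22.2%) were higher on the arrays numbered 1, beside 4.84% of all probe sets. Among the 16 members above the controls on all 4 arrays there were 6 (37.5%), beside 5.85% of such probe sets. The 8 were Hoxb3, Hoxb4, Hoxb6, Hoxb7, Hoxb9, Hoxd8, Hoxa7 and Meis1, which include 5 of the 9 HoxB genes. Of these, Hoxa7 was at control level on both Men1-complemented arrays and vector array 2, and Hoxb4 on Men1-complemented array 2. In the opposite direction there were 3 of the 36 (8.33%), Hoxa3, Hoxb1 and Pbx2, beside 8.91% of all probe sets. All 3 were above the controls on all 4 arrays. They made 18.8% of the 16 such members, beside 8.51% of such probe sets. The bound of 0.3 was chosen after the values were seen, neighbouring HoxB genes were read on the same 4 arrays, and no test was made of this pattern.

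The sizes of these differences between arrays numbered 1 and 2 were 1.37 in the Men1-complemented group and 1.11 in the vector group for Hoxb4. For Hoxb9 they were 0.94 and 0.69, and for Hoxb7 they were 0.70 and 0.36. Hoxd8 differed by 0.82 and 0.42, and Meis1 by 0.38 and 0.43. Hoxa3 ran the other way, at -1.09 and -0.74, as did Hoxb1 at -0.56 and -0.64 and Pbx2 at -0.44 and -0.59. Hoxa6 and the brighter Hoxb8 probe set differed mainly within the vector group, by -1.32 and -1.04.

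The labels do not say what the array numbers stand for. Other genes moved with them too. The summed signal of the 5 neural markers was 4085.3 and 4349.1 on the arrays numbered 1 and 3287.7 and 2715.3 on those numbered 2, with Sox2 at 881.9 and 928.2 against 562.2 and 505.2. That of the 6 epithelial markers was 220.1 and 253.9 against 337.7 and 285.3. For the 14 fibroblast markers it was 12807.5 and 11625.7 against 11147.1 and 12978.6, and among them Postn read 5.7 and 8.2 against 46.4 and 125.1. The matrix gene Col5a2 went the other way, at 1464.1 and 1564.5 against 951.7 and 683.8, as did the receptor gene Pdgfrb at 107.4 and 87.3 against 63.1 and 69.2. Sums ran from 51.7 to 80.1 over the 4 arrays for the endothelial markers, with Cdh5, Tek and Tie1 at control level and Pecam1 above the controls on all 4 arrays (23 to 49.5). For the blood markers they ran from 108.6 to 136.8, with Ptprc at control level and Cd74 (51.7 to 70.5) and Cd68 (39.8 to 56.7) above the controls on all 4 arrays. For the muscle markers they were 241.1 and 187.6 with Men1 and 299.2 and 276.7 with vector. Among them Myog read 23.7 and 28.1 against 68.1 and 53.3, and the others overlapped between groups. Not every marker followed the sum of its list by array number. Gfap read 52.6 and 46.6 on the arrays numbered 1 against 37.8 and 74.4, and Krt19 read 106.7 and 93.6 against 146.5 and 67.2. The part of these marker differences in the Hox differences was not tested.

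**Figure D4:**
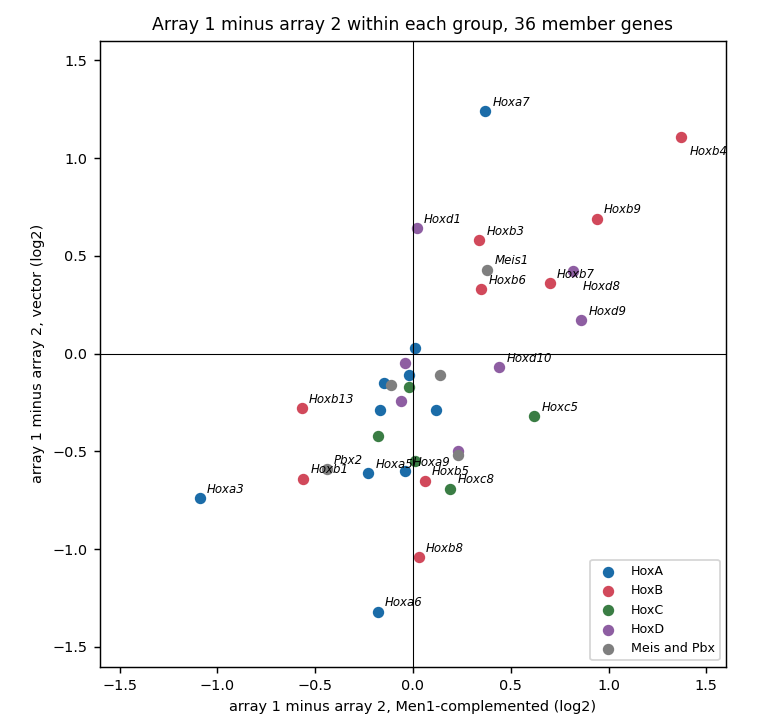
Log2 difference of array 1 minus array 2 in the Men1-complemented group (horizontal) and in the vector group (vertical) for the 36 member genes, coloured by cluster. Hoxb4 (1.37 and 1.11), Hoxb9 (0.94 and 0.69), Hoxb7 and Hoxd8 lie in the upper right, and Hoxa3 (-1.09 and -0.74), Hoxb1 and Pbx2 in the lower left.

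Promoter sequences were at hand for 24 of the 36 members, as 26 windows from RefSeq (GRCm38.p6), read here over the 250 bases before the annotated start. The methyltransferase encoded by Kmt2a has a domain that binds unmethylated CpG, so CpG dinucleotides are marked in capitals. The windows shown are those of Hoxb4 and Hoxd8, higher on the arrays numbered 1, and of Hoxa3 and Hoxb1, higher on those numbered 2. They lie at chr11:96318017-96318266 (plus strand) for Hoxb4, chr2:74704365-74704614 (plus strand) for Hoxd8, chr6:52213068-52213317 (minus strand) for Hoxa3 and chr11:96365508-96365757 (plus strand) for Hoxb1.
Hoxb4: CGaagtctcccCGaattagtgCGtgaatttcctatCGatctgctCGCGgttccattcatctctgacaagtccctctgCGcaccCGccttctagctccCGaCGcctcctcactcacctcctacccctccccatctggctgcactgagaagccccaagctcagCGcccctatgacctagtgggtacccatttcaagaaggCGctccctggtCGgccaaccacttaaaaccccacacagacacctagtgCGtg
Hoxd8: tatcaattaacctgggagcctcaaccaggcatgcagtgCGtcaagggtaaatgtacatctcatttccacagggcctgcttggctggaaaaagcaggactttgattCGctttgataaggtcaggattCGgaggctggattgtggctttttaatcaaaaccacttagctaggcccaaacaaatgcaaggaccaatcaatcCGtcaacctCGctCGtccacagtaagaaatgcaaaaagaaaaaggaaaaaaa
Hoxa3: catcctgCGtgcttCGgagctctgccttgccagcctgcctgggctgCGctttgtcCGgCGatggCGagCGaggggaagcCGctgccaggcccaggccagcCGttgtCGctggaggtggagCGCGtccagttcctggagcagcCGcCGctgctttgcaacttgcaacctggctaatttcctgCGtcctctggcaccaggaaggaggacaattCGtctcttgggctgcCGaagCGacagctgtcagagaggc
Hoxb1: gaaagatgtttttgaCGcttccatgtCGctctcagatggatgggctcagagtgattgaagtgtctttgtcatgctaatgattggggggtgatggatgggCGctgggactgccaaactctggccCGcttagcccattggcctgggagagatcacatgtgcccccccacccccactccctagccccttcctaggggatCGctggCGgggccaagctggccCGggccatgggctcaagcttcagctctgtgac

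These windows hold 14 CpG for Hoxb4, 6 for Hoxd8, 18 for Hoxa3 and 7 for Hoxb1. Of the other members that differed by at least 0.3 by array number in both groups, Hoxa7 had 7, Meis1 13 and Pbx2 27. Hoxb3, Hoxb6, Hoxb7 and Hoxb9, which differed in the direction of Hoxb4, had no window at hand. Whether CpG content follows the array number was not tested. Over the 26 member windows the median was 13 CpG, from 2 in one Hoxd11 window to 35 in that of Hoxa13, and over all 32851 windows it was 6. Windows of genes above the controls on all 4 arrays held from 6 CpG, for Hoxa2 and Hoxd8, to 27, for Pbx2. Those of genes at control level on every array held from 2, in one Hoxd11 window, to 35, for Hoxa13. Whether the CpG count follows detection was not tested.

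The letters TGACAG, a core bound by Meis proteins, were found on either strand in 2 member windows, those of Hoxa2 and Hoxa3 (7.69%, beside 15.9% of all windows). TGATNNAT, a form of the joint Pbx and Hox site, was in 4, those of Hoxa2, Hoxb1, Hoxb8 and Hoxd11 (15.4%, beside 7.68% of all windows). In Hoxa2, which holds both motifs, they share 0 bases. Such matches are descriptions of the sequence.

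Genes around the Hox system outside the members were described from lists. Of 4 measured TALE genes outside the members, 3 were higher and 1 lower with Men1, and 0 were at an unadjusted limma p under 0.05. Pknox1, a partner of Pbx proteins related to Meis, read 130.9 and 145.6 against 104 and 149.5 (0.13, SE 0.23). Of 18 measured genes of retinoic acid signalling and caudal factors, which set Hox expression along the axis, 7 were higher and 11 lower. Of the 18, 1 was at an unadjusted limma p under 0.05, beside 1.88% of all probe sets. This was Gdf11, a ligand that controls the trunk to tail transition of Hox expression. It read 37.2 and 43.5 with Men1, against 22.3 and 15.8 with vector. Vector array 2 was at control level. The groups did not overlap, at a difference of 0.69 (SE 0.20) and an adjusted limma p of 1.

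Of 27 measured chromatin regulators of Hox clusters, including subunits of the menin and Polycomb complexes, 17 were higher and 10 lower, with a median of 0.05 and 0 at an unadjusted limma p under 0.05. Aff1, a fusion partner of Kmt2a in leukaemia, read 74 and 92.1 against 73.2 and 47, which did not overlap (0.40, SE 0.25). Without vector array 2 the difference of Aff1 was 0.15. Genes reported as controlled by Hox or Meis proteins were 12 higher and 15 lower of 27, with a median of -0.02 and 0 at an unadjusted limma p under 0.05. Efna1, an ephrin ligand, read 10.8 on both Men1-complemented arrays, at control level, and 13.7 and 44.2 with vector (-0.66, SE 0.37). Without vector array 2 the difference of Efna1 was -0.15. Over these 4 lists, as among the members, 0 genes passed after adjustment.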

How the data were processed

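RNA of 4 samples was measured on 1 Affymetrix array each. Linear intensity was deposited for each probe set. The authors' tools, per the submitters' processing notes, were MAS5 and Affymetrix Expression Console (versions and scaling target not stated there). The mean after trimming 2% at each end was 149.97 to 149.98 on the arrays, so each had been scaled as a whole. Above the controls were 63.1% and 61.9% of probe sets with Men1, and 67.9% and 70.7% with vector.

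Controls of the array (66 of 12488 probe sets) were left out. No further normalization was applied. Values were taken as log2(signal + 16) and fitted by group in limma 3.58.1 (lmFit, eBayes; R 4.3.3), with two-sided p-values adjusted by Benjamini-Hochberg over all 12422 probe sets at a threshold of 0.05, with 2 residual and 2.87 prior degrees of freedom. The fit was tested on simulated data. Where a gene had several probe sets, the one of highest mean signal stood for it. At control level means not above the highest of the 19 unspiked controls (bacterial Dap, Lys, Phe, Thr and Trp, and yeast genes).

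Gene symbols came from the platform annotation. By gene ID all 36 members had the same symbol in the RefSeq gene table. The members and lists were chosen with earlier results of these data known. The rule for values by array took members above the controls on all 4 arrays, those at an unadjusted p under 0.05 and the 6 with the largest absolute difference, 21 in all. Values of the other 15 were added after they were seen. From each related list the gene with the smallest p is named. Promoter windows were chosen after the values were seen. Alternatives covered the pseudocount, a filter on dim probe sets, scaling, the prior variance, the replicate number as a block, control probe sets, the choice of probe set and leaving out each array.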

Additional observations from a re-analysis of the deposited data

How the results depend on the processing

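By limma, 0 member probe sets passed after adjustment in each of the 13 settings, and the smallest adjusted p of a member was 0.576, reached without vector array 1 by Hoxb3 and others. The count of members at an unadjusted p under 0.05, 0 as reported, was 2 with a pseudocount of 1 (Hoxa11 and Hoxc9, both at control level), 1 with quantile normalization (Hoxc9), 1 with a trend of the prior variance (Hoxa11) and 0 to 6 without single arrays. Over all probe sets the share at an unadjusted p under 0.05, 1.88% as reported, was 2.69%, 2.36% and 1.95% in the former 3 settings, and from 0.974% (without Men1-complemented array 1) to 8.3% (without vector array 1) without single arrays. With a replicate block it was 1 (Hoxb3, unadjusted p of 0.0266), and 297 of all probe sets against 233. The labels do not say that the numbers pair the arrays. Differences between arrays 1 and 2 correlated between the groups across all 12422 probe sets (r = 0.26), across the 7217 above the controls on all 4 arrays (r = 0.37) and across the 36 member genes (r = 0.64). These are descriptions without a test, since probe sets and genes share the same 4 arrays and are not independent. With 2 arrays a group, 1 array carried many of the differences. Of the 36 members 11 kept their sign in every setting run on them, and of the 16 above the controls on all arrays 2 did, Hoxa2 and Hoxb3. Differences turned in sign for Hoxa6 with a pseudocount of 64 (-0.01), and with the mean over all probe sets of the gene for Hoxb8 (0.02) and Pbx3 (-0.07). Without single arrays the ranges for genes that turned were Hoxa3 -0.79 to 0.30, Hoxa4 -0.12 to 0.16, Hoxa5 -0.58 to 0.03, Hoxa6 -0.62 to 0.70, Hoxa7 -1.05 to 0.19, Hoxa13 -0.11 to 0.04, Hoxb1 -0.28 to 0.35, Hoxb4 -0.60 to 0.77, Hoxb5 -0.12 to 0.53. For further genes they were Hoxb6 -0.23 to 0.12, Hoxb7 -0.47 to 0.23, Hoxb8 -0.67 to 0.37, Hoxb9 -0.39 to 0.54, Hoxb13 -0.37 to 0.20, Hoxc4 -0.40 to 0.02, Hoxc6 -0.48 to 0.07, Hoxd1 -0.59 to 0.05, Hoxd8 -0.62 to 0.20, and then Hoxd9 -0.18 to 0.68, Hoxd10 -0.29 to 0.14, Hoxd11 -0.22 to 0.02, Meis1 -0.21 to 0.22, Meis3 -0.32 to 0.20, Pbx2 -0.22 to 0.37, Pbx3 -0.02 to 0.12, Pknox1 -0.10 to 0.36. Over the same settings medians ran from -0.14 to 0.04 for all members, -0.28 to 0.04 for HoxA, -0.17 to 0.23 for HoxB, -0.40 to 0.07 for HoxC, -0.27 to 0.01 for HoxD and -0.22 to 0.10 for Meis and Pbx genes. The HoxD median was -0.26 with a pseudocount of 1 and 0.02 with the filter on dim probe sets. The Meis and Pbx median was -0.06 with the mean over probe sets. Groups did not overlap for 3 of the 24 members kept by that filter (beside 21.9% of all probe sets it kept), for 13 with quantile normalization (beside 25.3%) and for 19 to 25 of 36 without single arrays (beside 50% to 72.4%). Members above the controls numbered 19 with the second highest control as the limit and 4 (Hoxa4, Hoxb5, Hoxb6 and Pbx3) with the highest antisense control probe set, a limit of 114.4 to 137 that was added after the data were seen. The cause of these changes was not tested.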
